A study of Mus musculus with 18 samples.

Results

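Luminal progenitor (LP) cells of the adult mammary gland were described in the 3 libraries labelled adult FVB/NJ, which carry the names A10, P7 and D12. The cells were chosen by the counts of 14 genes. A cell was taken as LP when it had at least 500 detected genes, less than 20% of its unique molecular identifiers (UMIs, the counted RNA molecules) from mitochondrial genes, more UMIs of the luminal keratins Krt8 and Krt18 than of the basal keratins Krt5 and Krt14, and at least 2 UMIs of Kit, Elf5, Aldh1a3, Cd14 and Plet1 together. The summed UMIs of these 5 markers also had to exceed those of Prlr, Cited1, Areg, Pgr and Esr1, which mark hormone-sensing cells. The rule took 4821 of the 19944 kept cells of these libraries, in a series of 18 libraries with 133710 kept cells. Of the LP cells, 2747 were in A10, 786 in P7 and 1288 in D12. LP cells with at least 2% of their UMIs from the caseins Csn2, Csn3 and Csn1s1 were called casein-high, and the remainder other LP cells.

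The series profiled mouse mammary epithelium by droplet single-cell RNA sequencing from the embryo to the gland after involution. The 3 adult libraries came from virgin females of 10 weeks with no genetic modification named in the labels. The study did not stage the mice for the estrus cycle and pooled glands of several mice per library, which makes the library the replicate. By sorting it removed cells with the blood and endothelial surface markers Ter119, CD31 and CD45. It describes the sorted cells of the adult and pregnancy stages as positive for CD24 and high for CD29. Shares of cell classes are thus shares of sorted cells and not of the whole gland. Casein-high LP cells of both FVB/NJ libraries of pregnancy day 12.5, named H and G, were compared with the adult ones. The adult C57BL/6 and adult SWISS libraries (10 weeks) are cited for their levels only. The same holds for the post-involution FVB/NJ library (3 weeks after weaning).

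The mammary epithelium is built from an outer basal layer of contractile cells and an inner luminal layer, which holds hormone-sensing cells, also called mature luminal cells, and LP cells. LP cells lack the estrogen and progesterone receptors for the most part, express the receptor tyrosine kinase Kit and the transcription factor Elf5, and are regarded as the source of the milk-secreting alveolar cells of pregnancy. Caseins are the main milk proteins, and their genes are switched on by prolactin through the transcription factor Stat5.

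The library labelled adult FVB/NJ D12 stood with C57BL/6 libraries and not with its strain label. Outside it, 18 genes differed by at least 4-fold between every one of the other 9 FVB/NJ libraries and every one of 5 C57BL/6 libraries, and in D12 all 18 were on the C57BL/6 side. Rpgrip1 stood at 41.0 CPM (UMIs of the gene per 1000000 UMIs) in the kept cells of D12, at 18.3 to 67.1 CPM in the C57BL/6 libraries and at no more than 3.20 CPM in the other FVB/NJ libraries. Of the 18 genes, 5 are caseins or members of the milk gene list described here, and Lao1 and Spp1 are among the rest. Apart from adult C57BL/6, these C57BL/6 libraries are of embryonic to pre-pubertal stages, so strain and stage overlap, and the cause was not tested. Both pubertal libraries, which are labelled C57BL/6 too, were not used to find the genes and lay on the C57BL/6 side for 14 (terminal end buds) and 10 (ducts). Adult SWISS, another strain not used to find them, lay on the C57BL/6 side for 10 and on the FVB/NJ side for 8. A place on the C57BL/6 side was thus not particular to C57BL/6 libraries for each of these genes. Values are therefore given by library, and the counts of genes called also without D12. The adult libraries held 69643560 UMIs (A10), 9920346 (P7) and 34121281 (D12), and median UMIs per LP cell were 5389, 3053 and 3925.5. P7 had barcodes of 14 bases and the others of 16, so P7 may have been made with another kit version, and differences of P7 from A10 and D12 cannot be told apart from it. A10 and D12 shared 76 barcodes among kept cells, in 4 of which both cells were LP, and A10 shared 176 with H and 200 with G. With adult C57BL/6 and adult SWISS, A10 shared 5 and 3, and D12 shared 1 with each. The cause of this difference was not tested. Numbers expected between unrelated libraries were not computed, so these counts do not show shared cells.

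LP cells made up 24.9% of the kept cells in A10 (95% exact binomial interval 24.1 to 25.7), 23.8% in P7 (22.3 to 25.3) and 23.05% in D12 (21.9 to 24.2), a mean of 23.9% ± 0.916 (SD, n = 3). These intervals cover counting error only. The same rule gave 21.4% in adult C57BL/6, 25.1% in adult SWISS and 22.8% in the post-involution library. LP shares of the 3 adult libraries thus lay within 2 percentage points of each other, while hormone-sensing cells, chosen by the mirrored rule, took 33.7% ± 0.853 and cells with more basal than luminal keratin 35.8% ± 4.06.

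The 5 marker genes chose the cells, so their levels are given as a description. Plet1, a surface protein of luminal progenitors, had at least 1 UMI in 97.1%, 97.7% and 94.8% of LP cells in A10, P7 and D12. It stood at 2986, 7915 and 2544 CPM in LP cells and at 295, 408 and 250.01 CPM in hormone-sensing cells. Cd14, a co-receptor for bacterial lipopolysaccharide, was found in 66.1%, 89.1% and 64.6% of LP cells, at 363, 2426 and 382 CPM. Plet1 and Cd14 were both highest in P7. Elf5, the transcription factor of alveolar fate, was found in 54.2%, 57.8% and 45.3% of LP cells, at 160.1, 352 and 152 CPM. Kit, the receptor for stem cell factor, was found in 33.2%, 13.99% and 34.9%, at 73.9, 45.6 and 111 CPM. Aldh1a3, which makes retinoic acid, stood at 94.7, 94.8 and 382 CPM and was about equal in A10 and P7 and highest in D12. Adult C57BL/6 LP cells held 498 CPM of Aldh1a3.

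LP cells carried a median of 20 marker UMIs in A10, 33 in P7 and 13 in D12, and 3 of the 5 markers was the commonest number detected, in 35.8%, 43.5% and 36.3% of cells. All 5 markers were found together in 5.82%, 1.65% and 7.76% of LP cells. At the threshold, 93, 7 and 41 cells held exactly 2 marker UMIs, and 92, 11 and 21 otherwise eligible cells held 1. In A10 the cells just inside had 88.8 CPM of Ehf, 734 CPM of Ltf and 1345 CPM of Acta2. The cells just outside had 46.5, 341 and 3391 CPM of these genes. In D12 the values were 158, 1237 and 1810 CPM inside and 123, 826 and 3357 CPM outside. In P7 they were 0, 2278 and 591 CPM inside and 115, 3168 and 3284 CPM outside, so Acta2 was lower inside in all 3 libraries and Ehf and Ltf were lower inside in P7. Markers of other cell types had UMIs in some LP cells, and their source was not tested: 17.2%, 9.03% and 54.0% of LP cells held a Krt5 or Krt14 UMI, and 55.3%, 33.6% and 69.8% held a UMI of a hormone-sensing marker.

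Outside the genes of the rule, LP cells were set against all other kept cells of the same library. LP cells had more RNA of the transcription factors Ehf, Foxc1, Sox10 and Bcl11a, of milk protein genes and of defence genes such as Ltf and Cxcl2. They had less of the contractile genes and of the hormone-sensing genes Foxa1 and Stc2. UMIs were summed per library and class and tested with edgeR's quasi-likelihood test, library being a block, at a Benjamini-Hochberg adjusted p under 0.05. The cells were chosen on 14 genes, which were left out of the test, so genes that go with these differed through the choice itself and the test says only whether a difference recurred across libraries. Of 13284 genes tested, 13.9% were higher and 17.2% lower in LP cells. Without D12, 2207 of 12735 genes tested were higher and 2338 lower, against 1848 and 2280 of 13284 with it. Scaling by total UMIs alone, without edgeR's TMM factors, took the median log2 fold change of all genes from -0.02 to -0.25 and gave 1172 higher and 3385 lower, so changes are relative to the TMM scale. In bulk sums, more RNA per cell and more cells expressing a gene cannot be told apart. The libraries are the replicates and form the block. The p-values thus measure how the difference between the classes varied across these 3 libraries, with spread borrowed across genes.

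Of 15 transcription factors and cofactors associated with LP cells, 6 rose (background 13.9%), 3 fell (background 17.2%) and 6 did not pass the test, with a median log2 fold change of 0.39 against -0.02 over all genes tested. Ehf, an ETS factor of epithelial cells related to Elf5, stood at 85.6, 152 and 141 CPM in LP cells and at 11.4, 11.4 and 11.6 CPM in other cells (log2 fold change 3.62 ± 0.19 SE, adjusted p = 2.9e-05). Foxc1, a forkhead factor, stood at 19.6, 7.84 and 19.8 CPM in LP cells and at 5.14, 2.15 and 1.92 CPM in other cells (log2 fold change 2.66 ± 0.30 SE, adjusted p = 0.000434). Sox10, a factor of progenitor and neural crest cells, stood at 61.9, 44.9 and 100.4 CPM in LP cells and at 13.1, 7.15 and 28.3 CPM in other cells (log2 fold change 2.41 ± 0.19 SE, adjusted p = 0.000107). For these 3 genes the LP values of every library lay above all values of the other cells. Bcl11a, a zinc finger factor, stood at 8.12, 12.1 and 17.9 CPM in LP cells and at 2.19, 3.58 and 3.77 CPM in other cells (log2 fold change 2.22 ± 0.20 SE, adjusted p = 0.000168). Id4, an inhibitor of helix-loop-helix factors known from basal cells, stood at 18.7, 3.21 and 29.6 CPM in LP cells and at 123, 47.6 and 180.4 CPM in other cells (log2 fold change -2.63 ± 0.19 SE, adjusted p = 7.95e-05). Bcl11a was higher and Id4 lower in the LP cells of each library without overlap between the classes. Stat5a, the factor that carries the prolactin signal, stood at 39.96, 32.4 and 27.2 CPM in LP cells and at 60.2, 56.6 and 53.1 CPM in other cells (log2 fold change -0.55 ± 0.15 SE, adjusted p = 0.0242) and was lower in LP cells in each library. Its call was lost on leaving out any 1 library (adjusted p 0.0543 to 0.118). Gata3, a master factor of luminal cells, stood at 119, 111 and 143 CPM in LP cells and 145, 173 and 236 CPM in the others (adjusted p = 0.123 by edgeR), and passed without TMM with a log2 fold change of -0.55 (adjusted p = 0.0155).

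Surface proteins used to sort luminal cells split by subset, with 5 of 10 higher and 4 lower in LP cells. Tspan8, a tetraspanin, stood at 139, 344 and 199 CPM in LP cells and at 7.68, 19.3 and 28.1 CPM in other cells (log2 fold change 3.94 ± 0.30 SE, adjusted p = 9.31e-05). Cd55, which blocks complement, stood at 35.8, 103 and 37.6 CPM in LP cells and at 8.07, 23.9 and 8.15 CPM in other cells (log2 fold change 2.39 ± 0.13 SE, adjusted p = 3.36e-05). Prom1, which marks hormone-sensing cells, stood at 5.28, 15.3 and 3.72 CPM in LP cells and at 47.9, 93.8 and 22.4 CPM in other cells (log2 fold change -2.60 ± 0.18 SE, adjusted p = 6.69e-05). Tspan8 and Cd55 were higher and Prom1 lower in the LP cells of each library. All 12 basal and contractile genes were lower in LP cells, with a median log2 fold change of -3.08. Acta2, smooth muscle actin, stood at 324, 275 and 924 CPM in LP cells and at 3060.4, 7285 and 4081 CPM in other cells (log2 fold change -3.12 ± 0.40 SE, adjusted p = 0.000825). Of 12 hormone-sensing genes 10 were lower, led by Tph1 and Stc2 with log2 fold changes of -2.87 and -2.69. Ccnd1, cyclin D1, was the member that rose, with a log2 fold change of 1.32.

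Milk genes rose in LP cells, 10 of the 10 tested among 12 listed (Glycam1 and Lpo had too few UMIs to test). In the other cells Csn1s2b, Wap and Olah had no UMI in P7 and Wap none in D12, and Olah had none in D12 LP cells. Genes with UMIs almost only in LP cells pass the low-count filter through these cells. For them a rise was the only outcome open, so their calls add no support. Their median log2 fold change was 4.38. Lalba, the whey protein that helps make lactose, stood at 3601, 1536 and 101 CPM in LP cells and at 128, 11.7 and 4.16 CPM in other cells (log2 fold change 5.65 ± 0.48 SE, adjusted p = 0.000139). Btn1a1, which coats milk fat globules, stood at 448, 431 and 102 CPM in LP cells and at 19.6, 5.15 and 5.87 CPM in other cells (log2 fold change 5.10 ± 0.41 SE, adjusted p = 0.000106). Mfge8, another globule protein, stood at 1889, 5587 and 2092 CPM in LP cells and at 258, 386 and 324 CPM in other cells (log2 fold change 3.37 ± 0.24 SE, adjusted p = 7.56e-05). For each of these genes LP cells exceeded the other cells of their own library, while the D12 value of Lalba in LP cells was below that of the other cells of A10. Without D12 the milk genes again rose, 10 of 10. The part of free RNA in the milk UMIs outside LP cells was not tested.

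Defence genes rose in 12 of 15 tested among 16 listed, with a median log2 fold change of 2.86. Ltf, lactoferrin, an iron-binding protein of milk, stood at 555, 2463 and 1063 CPM in LP cells and at 25.2, 88.1 and 58.2 CPM in other cells (log2 fold change 4.72 ± 0.17 SE, adjusted p = 1.64e-05). Lcn2, which binds bacterial iron carriers, stood at 5360.4, 4869.7 and 2792 CPM in LP cells and at 705, 690.1 and 638 CPM in other cells (log2 fold change 2.86 ± 0.18 SE, adjusted p = 5.16e-05). Cxcl2, a neutrophil chemokine, stood at 637, 1613 and 501 CPM in LP cells and at 27.9, 40.8 and 30.1 CPM in other cells (log2 fold change 4.85 ± 0.26 SE, adjusted p = 3.23e-05). Ltf, Lcn2 and Cxcl2 did not overlap between LP and other cells. Wfdc18, a small secreted protein of milk and epithelium, stood at 4403, 417 and 6907 CPM in LP cells and at 207, 11.2 and 522 CPM in other cells (log2 fold change 4.63 ± 0.28 SE, adjusted p = 4.6e-05). Among LP cells Wfdc18 was lowest in P7 and highest in D12, while Ltf was highest in P7. Slpi, a secreted protease inhibitor, went the other way and stood at 92.1, 143 and 145 CPM in LP cells and at 1546, 1757 and 584 CPM in other cells (log2 fold change -3.01 ± 0.34 SE, adjusted p = 0.00044). Saa1, an acute phase protein whose reads may be shared with its near copy Saa2, was higher in the LP cells of A10 and P7 and stood at 0.846 CPM in those of D12 against 0.996 CPM in the other cells.

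In the Notch pathway 6 of 10 genes rose and 3 fell. The rise held for the receptors Notch1, Notch2 and Notch3 and the targets Hey1, Heyl and Hes1, and the fall for the ligands Jag1, Jag2 and Dll1. Notch3 lost its call without D12 (adjusted p = 0.0924), without A10 (adjusted p = 0.109) and without TMM (adjusted p = 0.221), and Notch2 (adjusted p = 0.0874) and Heyl (adjusted p = 0.124) lost theirs without A10. Hey1, a transcriptional repressor, stood at 88.4, 167 and 120.2 CPM in LP cells and at 5.59, 6.72 and 12.3 CPM in other cells (log2 fold change 4.13 ± 0.27 SE, adjusted p = 5.3e-05). Notch1 stood at 49.3, 36.7 and 50.4 CPM in LP cells and at 20.1, 11.01 and 13.3 CPM in other cells (log2 fold change 1.86 ± 0.16 SE, adjusted p = 0.000141). Jag1 stood at 3.69, 1.07 and 4.91 CPM in LP cells and at 24.2, 4.86 and 26.7 CPM in other cells (log2 fold change -2.35 ± 0.20 SE, adjusted p = 0.000145). Against hormone-sensing cells alone 4 of the 10 rose (Hey1, Heyl, Notch1 and Notch2) and Jag1 fell. Notch3 there stood at 23.7, 16.8 and 29.3 CPM in LP cells against 31.9, 22.5 and 28.6 CPM (adjusted p = 0.508), and Hes1, Dll1 and Jag2 did not pass either. In that test Notch2 lost its call without A10 (adjusted p = 0.0706), and Hes1 passed as higher on thinning (adjusted p = 0.0353). In KIT and ERBB signalling, 2 of 10 tested genes rose and 4 fell, beside 13.9% and 17.2% of all genes. Hbegf, a ligand of the EGF receptor, stood at 283, 241 and 270.3 CPM in LP cells and at 114, 84.2 and 87.01 CPM in other cells (log2 fold change 1.72 ± 0.12 SE, adjusted p = 6.16e-05). Kitl, the ligand of Kit, stood at 124, 138 and 43.5 CPM in LP cells and at 186, 239.5 and 73.03 CPM in other cells (log2 fold change -0.47 ± 0.12 SE, adjusted p = 0.0182), a call that was likewise lost without any 1 library (adjusted p 0.0615 to 0.0946). The prolactin and Stat5 pathway fell in 6 of 8 genes, among them Jak2 and the feedback inhibitors Socs1, Socs2 and Socs3, with log2 fold changes from -1.63 (Socs3) to -0.55 (Stat5a). Without D12, 4 of these 8 fell and 1 rose, beside 2338 and 2207 of all 12735 genes tested. Socs2 lost its call without any 1 library (adjusted p 0.0559 to 0.0739) and Jak2 without A10 (adjusted p = 0.145).

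Lipid genes rose in 6 of 12 and fell in 1. Plin2, the coat protein of lipid droplets, stood at 253, 1212 and 189 CPM in LP cells and at 26.5, 108 and 43.3 CPM in other cells (log2 fold change 3.20 ± 0.28 SE, adjusted p = 0.000152). Without D12, 9 of 12 rose, beside 2207 of all 12735 genes tested. In the retinoid pathway, 1 of 8 tested genes rose, Crabp2, which carries retinoic acid into the nucleus, and 3 fell, a share of rises near the 13.9% of all genes. Crabp2 stood at 106, 179 and 51.1 CPM in LP cells and at 15.2, 23.02 and 7.40 CPM in other cells (log2 fold change 3.08 ± 0.14 SE, adjusted p = 1.91e-05). Crabp2 was thus higher in LP cells without overlap, and it rose against hormone-sensing cells as well (log2 fold change 3.68). None of the 12 cell cycle genes passed the test. Mki67, a proliferation antigen, stood at 15.6, 0 and 3.72 CPM in LP cells and at 18.8, 1.57 and 5.58 CPM in the others. Of 10 immediate early and heat shock genes, which respond to cell isolation as well as to growth signals, 6 rose, with log2 fold changes from 0.34 (Jun) to 1.17 (Dusp1), and 3 rose without TMM. The list summed to 8123, 22361.5 and 13518 CPM in LP cells against 6595, 25934 and 8224 CPM in other cells, so the sum was lower in LP cells of P7. Jun lost its call without A10 (adjusted p = 0.105), without D12 (adjusted p = 0.0559), without TMM (log2 fold change 0.10, adjusted p = 0.546) and in cells of at least 1000 genes (log2 fold change 0.12, adjusted p = 0.523). In the endoplasmic reticulum (ER) folding list 3 of 12 rose and 1 fell, and without TMM 1 rose and 4 fell. Without D12 the numbers that rose and fell were 7 and 2 of 15 LP factors, 5 and 5 of 10 surface genes, 1 and 9 of 11 hormone-sensing genes and 0 and 12 of 12 basal genes. They were 12 and 2 of 15 defence genes, 5 and 3 of 10 Notch genes, 1 and 4 of 9 KIT and ERBB genes, 1 and 3 of 8 retinoid genes, 5 and 0 of 10 immediate early genes and 4 and 0 of 12 ER genes. Beside these counts, 2207 of all 12735 genes tested without D12 rose and 2338 fell.

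The rule for naming genes outside these lists gave Spp1, Car2, Cyp24a1, Pkib, Slc28a3, Plb1, Klk10 and Clic6 as the largest rises. Spp1, osteopontin, stood at 12039, 38209 and 2.71 CPM in LP cells and at 401, 505 and 0 CPM in other cells (log2 fold change 5.89 ± 0.34 SE, adjusted p = 3.9e-05). Car2, a carbonic anhydrase, stood at 95.4, 421 and 13.9 CPM in LP cells and at 3.30, 7.01 and 0.605 CPM in other cells (log2 fold change 5.42 ± 0.28 SE, adjusted p = 2.9e-05). Clic6, a chloride channel family member, stood at 123, 277 and 118 CPM in LP cells and at 6.14, 5.58 and 6.30 CPM in other cells (log2 fold change 4.86 ± 0.29 SE, adjusted p = 4.04e-05). Among LP cells Clic6 was highest in P7 and Spp1 lowest in D12. The largest falls were Ccl21a, Ctsj, Car3, Sprr1a, Upk3a, Crym, Tnnt3 and Ckm. Upk3a, a urothelial membrane protein, stood at 8.69, 13.9 and 8.80 CPM in LP cells and at 184, 118 and 90.5 CPM in other cells (log2 fold change -3.47 ± 0.26 SE, adjusted p = 7.95e-05). Tnnt3 and Ckm are muscle genes. Ckm stood at 6.08, 316 and 0.249 CPM in the other cells of the 3 libraries and at 0.114, 34.9 and 0.169 CPM in LP cells, and was highest in P7 in both.

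**Figure D1:**
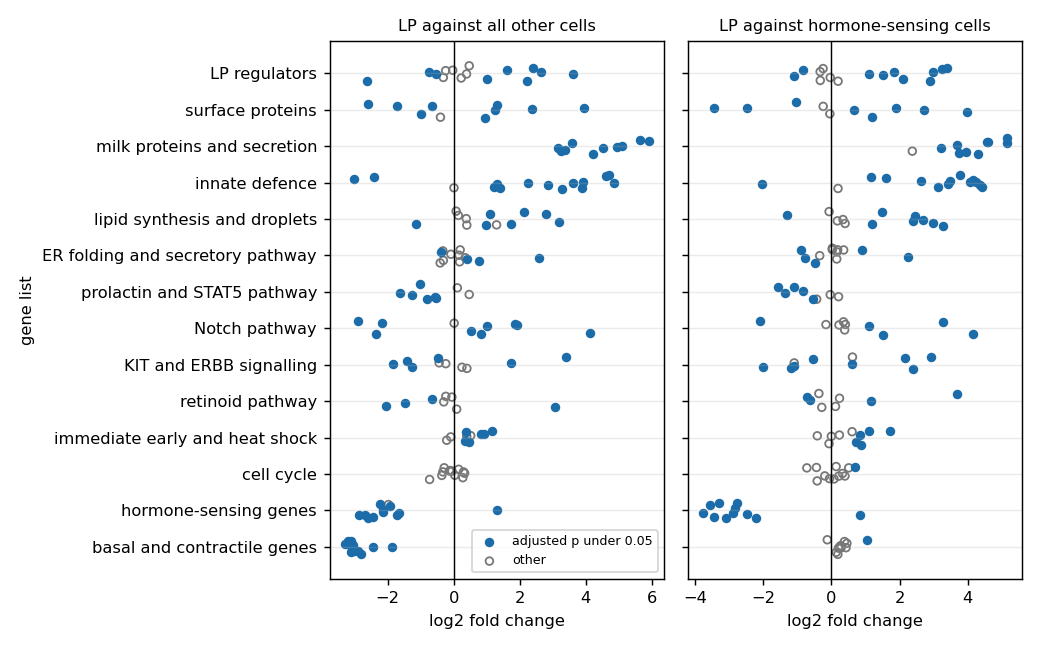
Log2 fold changes of the members of 14 gene lists in LP cells against all other cells (left) and against hormone-sensing cells (right), 1 point per gene, from the sums of 3 libraries. Filled points passed the test. Milk genes and most defence genes lie to the right in both panels, and the basal genes lie to the left in the left panel.

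Against hormone-sensing cells, the other luminal class, Sox10, Bcl11a and Tfap2c were higher in LP cells and Foxa1 and Tbx3 lower, and milk and defence genes rose again. Of 12784 genes tested, 16.4% were higher and 17.5% lower in LP cells. Of the 15 LP factors 8 rose and 2 fell, with a median log2 fold change of 1.09 against -0.03 over all genes. Sox10 stood at 61.9, 44.9 and 100.4 CPM in LP cells and at 7.26, 2.48 and 11.3 CPM in hormone-sensing cells (log2 fold change 3.39 ± 0.22 SE, adjusted p = 5.09e-06). Tfap2c, an AP-2 factor, stood at 49.96, 99.1 and 66.00 CPM in LP cells and at 14.5, 19.3 and 17.1 CPM in hormone-sensing cells (log2 fold change 2.11 ± 0.18 SE, adjusted p = 1.65e-05). Lmo4, a LIM domain cofactor, stood at 264, 90.2 and 298 CPM in LP cells and at 94.3, 28.5 and 71.6 CPM in hormone-sensing cells (log2 fold change 1.84 ± 0.16 SE, adjusted p = 1.93e-05). LP values exceeded those of hormone-sensing cells in each library for these 3 genes. Gata3 stood at 119, 111 and 143 CPM in LP cells and at 198, 237 and 294 CPM in hormone-sensing cells (log2 fold change -0.85 ± 0.15 SE, adjusted p = 0.0018) and was higher in hormone-sensing cells in each library. Without D12, 2117 of 12163 genes tested were higher and 1778 lower, and 8 of the 15 factors rose while 3 fell.

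Receptors of the ERBB family differed among themselves between the luminal classes. Egfr stood at 11.1, 14.3 and 16.4 CPM in LP cells and at 3.04, 0.991 and 3.50 CPM in hormone-sensing cells (log2 fold change 2.39 ± 0.30 SE, adjusted p = 0.000216). Erbb4, a neuregulin receptor that can activate Stat5, stood at 1.48, 0.713 and 4.23 CPM in LP cells and at 0.236, 0 and 0.552 CPM in hormone-sensing cells (log2 fold change 2.91 ± 0.53 SE, adjusted p = 0.00212). Erbb2 stood at 7.10, 12.5 and 9.14 CPM in LP cells and at 17.9, 25.01 and 21.5 CPM in hormone-sensing cells (log2 fold change -1.10 ± 0.19 SE, adjusted p = 0.0017). Erbb3 stood at 31.4, 19.96 and 32.3 CPM in LP cells and at 59.9, 25.3 and 47.97 CPM in hormone-sensing cells (log2 fold change -0.55 ± 0.17 SE, adjusted p = 0.0344). Egfr and Erbb4 were higher in LP cells, and Erbb2 and Erbb3 higher in hormone-sensing cells, within each library apart from Erbb4 in P7, where 2 UMIs in LP cells stood against 0 in hormone-sensing cells, at or under the floor of 3 counts. Erbb3 lost its call without D12 (adjusted p = 0.112), without A10 (adjusted p = 0.457), by DESeq2 (adjusted p = 0.0743) and in cells of at least 1000 genes (adjusted p = 0.051). Of the list, 4 of 10 tested rose and 4 fell. Kitl rose here, with a log2 fold change of 0.61 ± 0.15 (SE), whereas it fell against all other cells. Itgb3, the integrin also called CD61 that marks progenitors in some strains, stood at 19.3, 4.99 and 5.08 CPM in LP cells and at 2.50, 0.495 and 1.41 CPM in hormone-sensing cells (log2 fold change 2.71 ± 0.33 SE, adjusted p = 0.000158).

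Milk genes rose against hormone-sensing cells in 9 of 10 tested and defence genes in 12 of 14. Of the milk genes that rose, Csn1s2b and Wap had no UMI in the hormone-sensing cells of P7, and Wap none in those of D12. The limit given above for such genes holds here too. C3, the central complement protein, stood at 93.2, 147 and 52.97 CPM in LP cells and at 8.38, 8.42 and 8.46 CPM in hormone-sensing cells (log2 fold change 3.46 ± 0.27 SE, adjusted p = 1.1e-05). Lpl, which frees fatty acids from blood lipids, stood at 21.6, 11.1 and 3.22 CPM in LP cells and at 3.82, 2.72 and 0.797 CPM in hormone-sensing cells (log2 fold change 2.39 ± 0.26 SE, adjusted p = 8.22e-05). C3 and Lpl were each higher in LP cells in every library. Hormone-sensing genes outside the rule fell in 10 of 11 tested, with a median log2 fold change of -2.88. Foxa1, a pioneer factor of the estrogen receptor, stood at 5.96, 11.8 and 14.2 CPM in LP cells and at 129.5, 63.6 and 113 CPM in hormone-sensing cells (log2 fold change -3.29 ± 0.33 SE, adjusted p = 4.98e-05). Tbx3 stood at 3.58, 4.28 and 16.4 CPM in LP cells and at 43.95, 23.03 and 84.5 CPM in hormone-sensing cells (log2 fold change -2.78 ± 0.26 SE, adjusted p = 3.03e-05). Both were lower in the LP cells of each library. Of the 12 basal genes Oxtr alone rose and none fell (4 rose without D12), and in the lists summed per library basal RNA in LP cells was 843, 733 and 2280.5 CPM against 884, 470.04 and 2189 CPM in hormone-sensing cells. Of the 5 fibroblast markers the collagens Col1a1, Col1a2 and Col3a1 rose, while the summed list stood at 84.98, 209 and 148 CPM in LP cells against 128, 1162 and 87.9 CPM in hormone-sensing cells. The rule for other genes named Apod and Enpp3 among the largest rises and Reg3g, Olfm4, Cntnap2 and Nrg4 among the largest falls.

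LP cells differed among themselves in casein RNA, and so did the libraries. The casein-high share was 33.6% of LP cells in A10 (923 cells, 95% interval 31.8 to 35.4), 16.5% in P7 (130 cells, 14.01 to 19.3) and 0.233% in D12 (3 cells, 0.0481 to 0.679). The mean was 16.8% ± 16.7 (SD, n = 3), and without D12 25.1%. The same threshold gave 0.0372% in adult C57BL/6, 1.54% in adult SWISS and 70.9% in the post-involution FVB/NJ library. At pregnancy day 12.5 it gave 94.4% (H) and 95.5% (G). D12 lay beside C57BL/6, and A10 and P7 lay between SWISS and the post-involution gland. The C57BL/6, SWISS and post-involution groups held 1 library each, so strain and stage were not compared by a test.

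Other epithelial cells measured the background at the same threshold. Hormone-sensing cells passed it in 34 cells of A10 (0.899%) and in none of P7 or D12. Cells with more basal than luminal keratin passed it in no library, which allows shares of up to 0.0851%, 0.255% and 0.134%. The LP share was above both in A10 and P7, while in D12 the interval of its 3 cells overlapped these limits. No test is given, since 3 pairs of libraries cannot go below p = 0.25 in an exact two-sided permutation test by sign flips. In A10 a Csn2 UMI was found in 59.5% of LP cells, 46.1% of hormone-sensing cells and 33.2% of basal cells, and in P7 in 34.4%, 3.90% and 2.72%. A single Csn2 UMI was thus common outside LP cells in A10 and rare in P7. Median UMIs per cell in A10 were 5389 in LP, 7234 in hormone-sensing and 3892.5 in basal cells. In P7 they were lower, at 3053, 3386 and 1947. Finding a single UMI depends on depth, and the part of depth in this difference was not tested.

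The caseins differed from each other across libraries. Csn2, beta-casein, stood at 8322, 4683 and 0 CPM in the LP cells of A10, P7 and D12. Csn1s1, alpha-casein, stood at 5374, 2699 and 4.91 CPM. Csn3, kappa-casein, which holds casein micelles in suspension, stood at 10456, 5987 and 1970.4 CPM and was found in 97.3%, 90.5% and 76.5% of LP cells. Csn2 was thus at 0 of 5908902 UMIs in the LP cells of D12, while Csn3 was lower there than in A10 and P7 but present in most cells. The same pattern held in adult C57BL/6, with Csn2 at 0 and Csn3 at 1471 CPM. In adult SWISS all 3 were present, with Csn2 at 687 CPM.

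The milk genes outside the rule followed. Csn1s2a stood at 10388, 7149 and 2.54 CPM, Trf (transferrin, an iron carrier of milk) at 12506, 39416 and 965 CPM and Wap (whey acidic protein) at 56.4, 6.42 and 0.338 CPM. Lao1, an amino acid oxidase secreted into mouse milk, stood at 126, 164 and 0 CPM. Csn1s2a, Trf, Wap, Lao1 and Spp1 were each at least 8-fold lower in D12 than in both other libraries. Genes of this kind numbered 32, of which 31 had adult C57BL/6 LP cells on the side of D12. A further 14 genes were at least 8-fold higher in D12, with C57BL/6 on its side in 12. Apobec3, a restriction factor against retroviruses, stood at 17.5, 47.8 and 485 CPM, and Slc5a7, a choline transporter, at 0, 0 and 64.5 CPM. Adult SWISS LP cells held 1200 CPM of Trf, 3.74 CPM of Wap and 0.246 CPM of Lao1, beside 145 CPM of Csn1s2a and 1482 CPM of Spp1. Low values of Trf, Wap and Lao1 were thus also seen in adult SWISS. Strain and library cannot be told apart here.

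**Figure D2:**
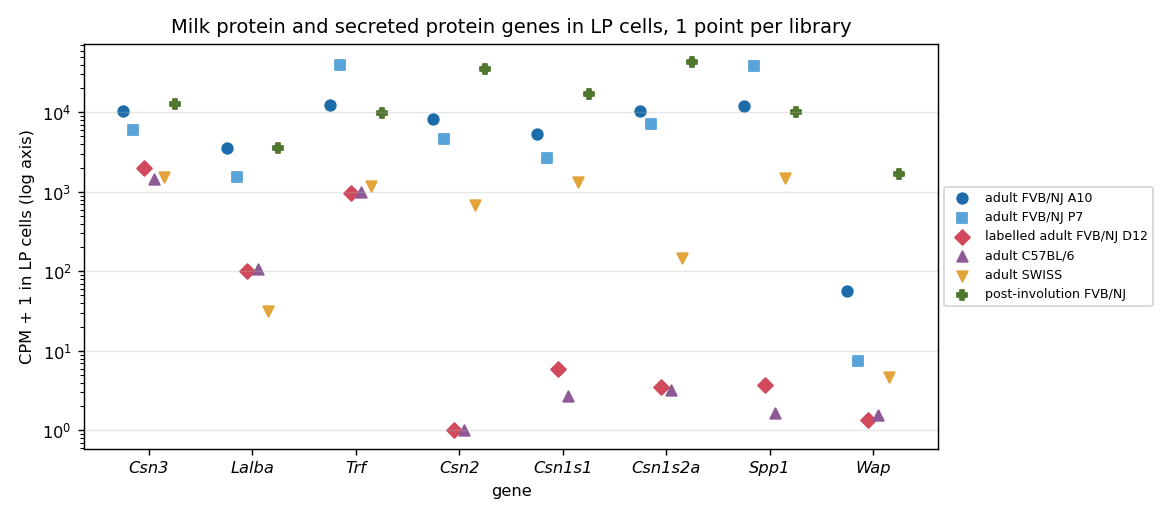
CPM plus 1 on a log axis of 8 milk and secreted protein genes in LP cells, 1 point per library, for the 3 libraries labelled adult FVB/NJ and 3 other adult or post-involution libraries. The D12 points lie with adult C57BL/6 for each gene, and A10 and P7 lie higher.

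The upstream sequences of 4 milk genes are shown because these genes moved together in LP cells or separated pregnancy from the adult. They are the 250 bases before the transcription start from RefSeq (build GRCm38.p6), read along the gene's strand 5′ to 3′, and capitals mark the palindromic Stat5 consensus TTCNNNGAA. This motif, the same on both strands, occurs in the 250 bases before 7.01% of 32817 annotated starts. Of 15 milk genes 10 had an entry and 3 of these held it, which are Csn1s1, Csn2 and Glycam1. Csn1s1 lies at chr5:87665958-87666207 (+), Csn2 at chr5:87699426-87699675 (-), Csn1s2a at chr5:87774200-87774449 (+) and Glycam1 at chr15:103565082-103565331 (-). The motif's first base lies 100 bases before the start in Csn1s1, 93 in Csn2 and 145 in Glycam1, and Csn1s2a holds no match in this window. A match is a description of letters and no test of binding.
Csn1s1: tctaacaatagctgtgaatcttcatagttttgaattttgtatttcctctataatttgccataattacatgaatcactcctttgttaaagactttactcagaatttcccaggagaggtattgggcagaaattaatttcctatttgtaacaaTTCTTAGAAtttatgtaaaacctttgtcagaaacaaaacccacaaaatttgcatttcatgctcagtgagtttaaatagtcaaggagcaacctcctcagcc
Csn2: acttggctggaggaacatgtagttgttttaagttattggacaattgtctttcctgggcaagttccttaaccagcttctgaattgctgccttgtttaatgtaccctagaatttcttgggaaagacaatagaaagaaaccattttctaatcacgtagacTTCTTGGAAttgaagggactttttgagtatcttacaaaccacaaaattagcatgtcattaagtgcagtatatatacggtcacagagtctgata
Glycam1: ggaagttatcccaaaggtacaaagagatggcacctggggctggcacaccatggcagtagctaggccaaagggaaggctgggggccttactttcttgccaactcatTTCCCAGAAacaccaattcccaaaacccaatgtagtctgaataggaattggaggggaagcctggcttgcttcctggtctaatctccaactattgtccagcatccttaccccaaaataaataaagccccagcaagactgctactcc
Csn1s2a: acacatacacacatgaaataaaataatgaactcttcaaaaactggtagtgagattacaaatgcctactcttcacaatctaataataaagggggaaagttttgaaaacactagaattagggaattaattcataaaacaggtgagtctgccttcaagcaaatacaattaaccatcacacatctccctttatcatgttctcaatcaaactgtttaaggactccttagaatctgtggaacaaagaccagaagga

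The casein share of single LP cells was graded, with no gap at 2%. Its median was 1.17% of UMIs in A10, 0.577% in P7 and 0.0799% in D12, and its maximum 20.7%, 18.3% and 2.59%. No casein UMI was found in 1.42%, 7.51% and 23.4% of LP cells. In A10, 182 cells lay between 2 and 2.5% and 249 between 1.5 and 2%, with 5608 and 4124 CPM of Lalba and 4513 and 2296 CPM of Csn1s2a. In P7, 40 and 62 cells lay in these ranges.

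Along this gradient milk genes that did not set it were higher in cells of higher casein share in A10, with the 3 caseins left out of the totals. Csn1s2a went from 83.5 CPM in cells under 0.1% casein through 413 CPM at 0.5 to 1% to 107135 CPM in cells at 10% or more. Lalba went from 154 to 9740 CPM, and Xbp1, a factor of secretory cells, from 98.5 to 470 CPM. Among the markers that chose LP cells, Aldh1a3 went down from 197 to 7.23 CPM and Kit from 97.6 to 37.9 CPM, while Elf5 went from 93.2 to 170 CPM. The lowest casein bin held 490.6 CPM of the fibroblast gene Dcn and 815 CPM of Acta2, and the highest 0 and 52.4 CPM. In P7 Csn1s2a went from 41.2 CPM under 0.1% to 76684 CPM at 5 to 10%, and Kit from 60.2 to 12.6 CPM. Aldh1a3 in P7 stood at 130 and 101 CPM in these bins, with 17 cells in the higher one. In D12 neither marker fell between cells under 0.1% and the 39 cells at 1 to 1.5%. There Aldh1a3 stood at 375 and 492 CPM and Kit at 109.7 and 129 CPM, against 197 and 72.2 CPM and 97.6 and 65.1 CPM in the same bins of A10.

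**Figure D3:**
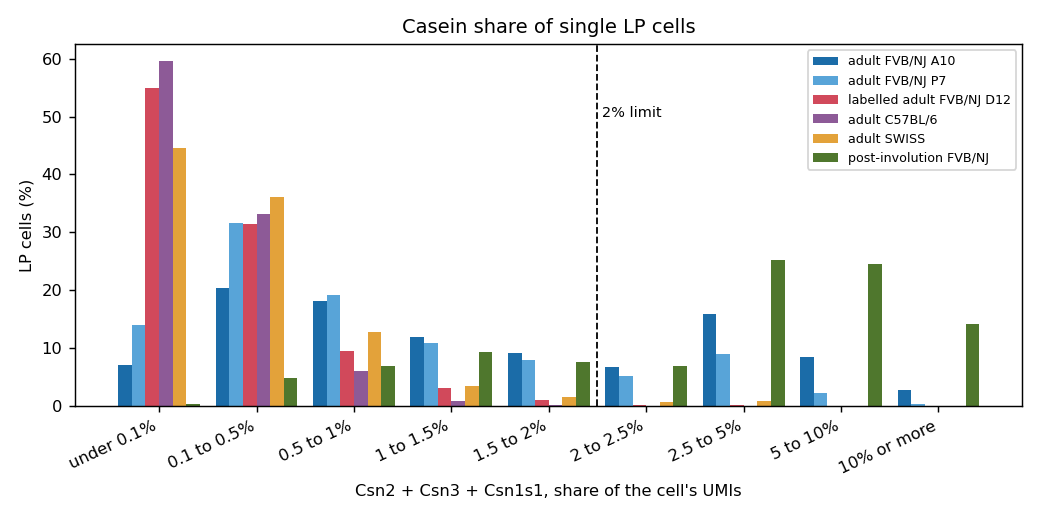
Share of LP cells (%) by the part of their UMIs that came from Csn2, Csn3 and Csn1s1, in 6 libraries. Cells right of the dashed line are casein-high, and bars of D12 and adult C57BL/6 fall almost wholly to its left.

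Casein-high and other LP cells were then compared within A10 and P7, the libraries with at least 10 cells of both kinds (923 and 1824 cells in A10, 130 and 656 in P7). By edgeR casein-high cells had more RNA of most of the remaining milk genes, of most ER folding genes and of some lipid genes. The summed ER genes differed less in P7 than in A10. They had less of basal, fibroblast and immediate early genes and of some hormone-sensing genes, and 1 of 15 LP factors passed the test, while without TMM 4 of them fell. The classes were cut on the 3 caseins, so genes that go with them differed through the choice, and the test says whether this recurred in both libraries. Of 10287 genes tested, with the 3 caseins left out of the totals, 8.17% passed, 4.57% higher and 3.6% lower in casein-high cells. The test had 1 residual degree of freedom, and its p-values depend on the spread borrowed across genes. The standard errors come from the same statistic and share this limit. They do not measure the difference between A10 and P7, so the values of both libraries are given. DESeq2 called 131 genes higher and 67 lower. Without TMM the median log2 fold change of all genes was -0.21 against -0.03, and 258 genes were higher and 741 lower.

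Milk genes rose in 8 of 9 tested, with a median log2 fold change of 1.498 against -0.03 over all genes, and in 6 of 9 by DESeq2. Csn1s2a stood at 28220.5 and 29010.1 CPM in casein-high cells and at 697 and 1809 CPM in other LP cells (log2 fold change 4.86 ± 0.10 SE). Wap stood at 145 and 30.7 CPM in casein-high cells and at 8.47 and 0.452 CPM in other LP cells (log2 fold change 4.35 ± 0.21 SE). Lalba stood at 6908 and 3066 CPM in casein-high cells and at 1869.6 and 1180.5 CPM in other LP cells (log2 fold change 1.82 ± 0.10 SE). Each was higher in the casein-high cells of both libraries without overlap, and Wap in the casein-high cells of P7 was lower than in those of A10. Lao1 stood at 327 and 580.3 CPM in casein-high cells and at 17.04 and 62.8 CPM in other LP cells (log2 fold change 3.98 ± 0.14 SE). Mfge8 did not pass the test, at 2023 and 5817 CPM against 1886 and 5624 CPM.

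The 12 ER genes summed to 3422 CPM in casein-high and 2436 CPM in other LP cells of A10. In P7 the sums were closer, at 4850 and 4378 CPM. Of these 12 genes 10 rose, by log2 0.36 (Hspa5) to 1.04 (Xbp1), while 3 rose by DESeq2 and 4 without TMM. Hspa5, the main ER chaperone, lost its call in both (adjusted p = 0.0919 by DESeq2 and 0.356 by edgeR without TMM). By edgeR it lost its call also without the filter on low counts (adjusted p = 0.0584), without the cells of highest doublet score (adjusted p = 0.103) and on thinning (adjusted p = 0.168). Xbp1, the transcription factor that enlarges the ER, stood at 349 and 774 CPM in casein-high cells and at 159 and 535 CPM in other LP cells (log2 fold change 1.04 ± 0.11 SE). Sdf2l1, an ER chaperone partner, stood at 78.1 and 77.7 CPM in casein-high cells and at 37.4 and 68.6 CPM in other LP cells (log2 fold change 0.97 ± 0.16 SE). Both were higher in the casein-high cells of each library, though Sdf2l1 moved less in P7 than in A10. Lipid genes rose in 6 of 12, and in 4 by DESeq2. Thrsp, which drives fatty acid synthesis, stood at 24.5 and 18.1 CPM in casein-high cells and at 6.10 and 6.77 CPM in other LP cells (log2 fold change 2.05 ± 0.31 SE). Scd1, a desaturase, stood at 269 and 280.2 CPM in casein-high cells and at 149 and 122 CPM in other LP cells (log2 fold change 1.16 ± 0.13 SE). Fabp3, a fatty acid carrier, stood at 20.1 and 5.42 CPM in casein-high cells and at 3.46 and 4.97 CPM in other LP cells (log2 fold change 2.29 ± 0.39 SE), with the difference mostly in A10. DESeq2 did not call Sdf2l1 (adjusted p = 0.127) or Fabp3 (adjusted p = 0.408). Hey1, Tspan8 and Itgb3 rose as well, with log2 fold changes of 1.14, 1.01 and 1.20, while Id4 alone of the 15 listed LP factors passed the test, with a log2 fold change of -2.16. Id4 was found mainly in basal cells, in 55.5% and 19.05% of those of A10 and P7 against 5.39% and 0.763% of LP cells. The part of basal RNA in its fall was not tested. At a casein limit of 5% the calls of Hey1, Tspan8, Itgb3, Id4, Xbp1, Sdf2l1, Scd1 and Lcn2 were lost (adjusted p 0.0748 to 0.999). The log2 fold change of Sdf2l1 was 0.54 there, and those of the others were 1.06, 0.87, 1.15, -1.86, 0.88, 0.81 and 0.81 in this order. Itgb3 lost its call on thinning too (adjusted p = 0.197). DESeq2 called neither Itgb3 (adjusted p = 0.59) nor Id4 (adjusted p = 0.522). Ehf stood at 67.3 and 128 CPM in casein-high cells against 99.3 and 160.3 CPM (adjusted p = 0.226 by edgeR), and passed without TMM with a log2 fold change of -0.48 (adjusted p = 0.0116).

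Defence genes split, 5 of 13 tested rising and 2 falling. Saa1 stood at 114 and 48.8 CPM in casein-high cells and at 19.7 and 4.52 CPM in other LP cells (log2 fold change 2.83 ± 0.19 SE), and Saa2, its near copy, rose in parallel by edgeR but not by DESeq2 (adjusted p = 0.575). Lcn2 stood at 7922 and 6584 CPM in casein-high cells and at 4118 and 4524 CPM in other LP cells (log2 fold change 0.93 ± 0.09 SE). Ltf stood at 487 and 1782 CPM in casein-high cells against 616 and 2675 CPM in other LP cells and did not pass (adjusted p = 0.076 by edgeR), but passed as lower under 4 alternatives, which are no TMM, the study's cell limits, no cells of high doublet score and thinning (log2 fold changes -0.46 to -0.39, adjusted p 0.000804 to 0.0145). Outside the lists the largest rises were Lao1, Apod, Slc34a2, Saa2, Pkib, Hepacam2, Ggt5 and Cyb5a. Apod, a lipocalin, stood at 1476 and 1593 CPM in casein-high cells and at 147 and 155 CPM in other LP cells (log2 fold change 3.52 ± 0.12 SE). Slc34a2, a phosphate transporter, stood at 28.8 and 27.1 CPM in casein-high cells and at 3.46 and 6.32 CPM in other LP cells (log2 fold change 2.97 ± 0.32 SE). Both showed the rise in each library.

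Basal genes fell in 10 of 12, fibroblast markers in 4 of 4 tested and immediate early and heat shock genes in 6 of 10 (7, 1 and 3 by DESeq2). Acta2 stood at 119 and 114 CPM in casein-high cells and at 453 and 319.7 CPM in other LP cells (log2 fold change -1.61 ± 0.13 SE). Dcn stood at 8.69 and 14.5 CPM in casein-high cells and at 66.5 and 216 CPM in other LP cells (log2 fold change -2.97 ± 0.20 SE). Fos stood at 1979.7 and 2777 CPM in casein-high cells and at 3413 and 5546 CPM in other LP cells (log2 fold change -0.71 ± 0.10 SE). Each was lower in the casein-high cells of both libraries, and Fos lost its call at a casein limit of 1% (log2 fold change -0.30, adjusted p = 0.101). The summed 5 fibroblast markers stood at 22.4 CPM in casein-high and 124 CPM in other LP cells of A10, and at 14.5 and 261 CPM in P7, where Dcn alone of the 5 had UMIs in casein-high cells. The summed 12 basal genes stood at 323 and 1170 CPM in A10 and 298 and 854 CPM in P7, against 19271 and 44944 CPM in basal cells. Of 9 hormone-sensing genes tested 3 fell, Tph1, S100a6 and Stc2, and the 12 summed stood at 521 and 971 CPM in A10 and 376 and 869 CPM in P7. Tph1 and Stc2 lost their calls by DESeq2 (adjusted p = 0.0795 and 0.127) and without the cells of highest doublet score (adjusted p = 0.276 and 0.376). They lost them by edgeR also at a casein limit of 5% (adjusted p = 0.725 and 0.158) and with the top 25% of cells by casein share (adjusted p = 0.0805 and 0.224). On thinning Tph1 lost its call too (adjusted p = 0.243). The part of fibroblast, basal and hormone-sensing RNA in these falls was not tested. The largest falls outside the lists were Ifi27l2a, Mfap5, Igfbp6, Pi16, Ly6c1, Fstl1, Clec3b and Anxa3. Mfap5, Igfbp6, Pi16 and Clec3b are known from fibroblasts.

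**Figure D4:**
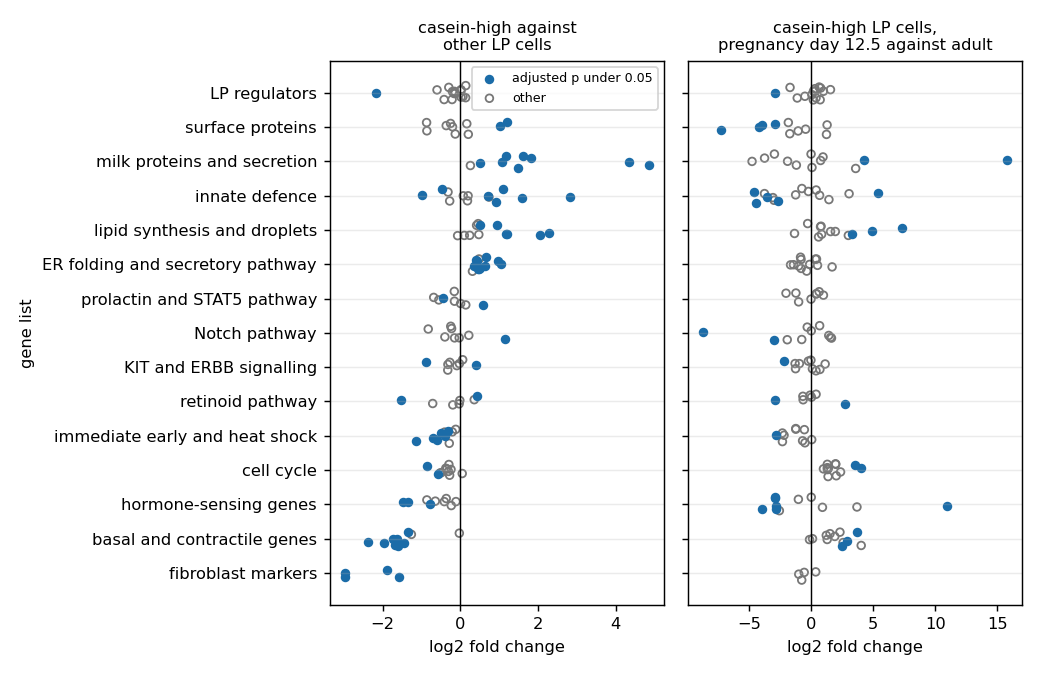
Log2 fold changes of list members in casein-high against other LP cells of A10 and P7 (left) and in casein-high LP cells of pregnancy day 12.5 against the adult (right), 1 point per gene, filled where the test was passed. Milk and ER genes and most lipid genes lie to the right in the left panel. Points far out in the right panel are fitted values of genes with almost no UMIs in 1 stage.

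Casein-high LP cells of the adult were set against those of pregnancy day 12.5, of which H held 5558 and G 4402. Glycam1, Fabp3, Thrsp and Rspo1 were higher in pregnancy, and Tspan8, Hey1, Apod and Pkib were higher in the adult. Of 12335 genes tested, 5.72% passed, 1.65% higher and 4.08% lower in pregnancy. Without TMM the median log2 fold change of all genes was 0.14 against 0.04, and 287 genes were higher and 421 lower. The count of calls moved with single libraries. Without H 0 genes were called by edgeR (592 at an unadjusted p under 0.05), without G 26, without A10 4375 and without P7 6254. Each of these fits leaves 1 library in an arm, which is assumed to vary like the other stage. Stage and processing batch cannot be told apart, and D12 gave no value here. The casein-high cells of the stages also differed in casein share. In A10, 232 of 923 held 5 to 10% casein and 75 held 10% or more, and in P7 17 and 3 of 130. In H these were 2824 and 1574 of 5558 cells, and in G 2113 and 1375 of 4402. Genes that go with casein share can differ between the stages through this, and its part was not tested.

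Glycam1, a mucin-like protein of milk, stood at 9221 and 10002 CPM in H and G and at 0.161 and 0 CPM in A10 and P7, a single adult UMI (ratio of the summed CPM 64751, counting interval 11621 to 2.56e+06). Fabp3 stood at 2355 and 2441 CPM in H and G and at 20.1 and 5.42 CPM in A10 and P7 (log2 fold change 7.29 ± 1.02 SE, adjusted p = 0.0253). Thrsp stood at 696 and 635 CPM in H and G and at 24.5 and 18.1 CPM in A10 and P7 (log2 fold change 4.87 ± 0.53 SE, adjusted p = 0.0154). Rspo1, a Wnt pathway ligand, stood at 275 and 261 CPM in H and G and at 0.322 and 5.42 CPM in A10 and P7 (log2 fold change 7.88 ± 1.03 SE, adjusted p = 0.0225). All were higher in both pregnant libraries than in either adult one. Both adult values of Rspo1, and that of Fabp3 in P7, were at or under the floor of 3 counts, so the size of these changes is uncertain. Csn1s2a stood at 54213 and 55765 CPM in H and G against 28220.5 and 29010.1 CPM in A10 and P7 and did not pass (adjusted p = 0.702). At a casein limit of 5% its log2 fold change was -0.090. Lalba stood at 171 and 217 CPM in H and G against 6908 and 3066 CPM in A10 and P7 and missed the threshold (adjusted p = 0.0537 by edgeR). It passed as lower in pregnancy by DESeq2 (log2 fold change -4.77, adjusted p = 1.22e-09), without TMM (adjusted p = 0.0458), without the filter on low counts (adjusted p = 0.00109), at a casein limit of 5% (adjusted p = 0.00326), and with the study's cell limits or at least 1000 genes per cell. Wap stood at 1107 and 1266 CPM in H and G against 145 and 30.7 CPM in A10 and P7 (adjusted p = 0.107 by edgeR), and passed as higher in pregnancy by DESeq2 (log2 fold change 3.60, adjusted p = 0.00092), without the filter (adjusted p = 0.0109) and at casein limits of 1 and 5% (adjusted p = 0.0385 and 0.0362). Without A10 or without P7 edgeR called all 3 of these genes, Csn1s2a and Wap as higher and Lalba as lower in pregnancy, but the adult arm is then 1 library assumed to vary like H and G. Within the milk list 2 of 12 rose by edgeR, Glycam1 and Olah, and none fell, beside 203 higher and 503 lower of all 12335 genes tested. With a single adult UMI, Glycam1 entered that test through pregnancy alone. By DESeq2 3 of the list rose and 4 fell, beside 192 higher and 585 lower of the 12335 genes.

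Of 10 surface genes 4 were lower in pregnancy (Tspan8, Itgb3, Prom1 and Ly6a) and of 10 Notch genes 2 (Hey1 and Heyl), of which Heyl lost its call without A10 (log2 fold change -3.26, adjusted p = 0.139). Prom1 and Ly6a also stand in the hormone-sensing list, of which 5 of 11 fell and 1 rose with a median log2 fold change of -2.58, and whose 12 genes summed to 281 and 297 CPM in H and G against 521 and 376 CPM in A10 and P7. Tspan8 stood at 2.25 and 1.95 CPM in H and G and at 208 and 488 CPM in A10 and P7 (log2 fold change -7.27 ± 0.51 SE, adjusted p = 0.00912). Hey1 stood at 0.411 and 0.45 CPM in H and G and at 138 and 246 CPM in A10 and P7 (log2 fold change -8.72 ± 0.44 SE, adjusted p = 0.00769). Apod stood at 0.315 and 0.51 CPM in H and G and at 1476 and 1593 CPM in A10 and P7 (log2 fold change -11.85 ± 0.77 SE, adjusted p = 0.00802). Pkib held 2 UMIs in pregnancy against 584 in the adult (ratio 0.00031, counting interval 3.75e-05 to 0.00113). These genes were lower in both pregnant libraries without overlap. Of 15 defence genes tested 4 fell, Cxcl1, Cxcl2, Lbp and Cxcl5, the first 3 with log2 fold changes of -3.59, -4.65 and -2.66, and Ccl20 rose. Cxcl5 and Ccl20 had few UMIs in 1 stage, and Lbp lost its call at a casein limit of 1% (adjusted p = 0.165). The 10 immediate early and heat shock genes summed to 3486 and 3521 CPM in H and G against 6297 and 15313 CPM in A10 and P7, with a median log2 fold change of -1.26 and 1 of 10 falling, and their part in this was not tested. Kit, Elf5 and Aldh1a3, described without a test, stood at 30.1, 262 and 9.86 CPM in all LP cells of H and at 28.7, 261 and 7.26 CPM in those of G. The summed basal genes stood at 1347 and 2025 CPM in H and G against 323 and 298 CPM in the adult, and Acta2, Mylk and Myl9 of that list rose in pregnancy. All 3 lost their calls without the cells of highest doublet score, at log2 fold changes of 2.85, 3.21 and 1.9997 (adjusted p 0.0538 to 0.0675). Acta2 lost its call also under the study's cell limits, on thinning and at a casein limit of 1%, at log2 fold changes of 3.75, 3.22 and 1.58 (adjusted p 0.065 to 0.137). The part of basal RNA in this was not tested.

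**Figure D5:**
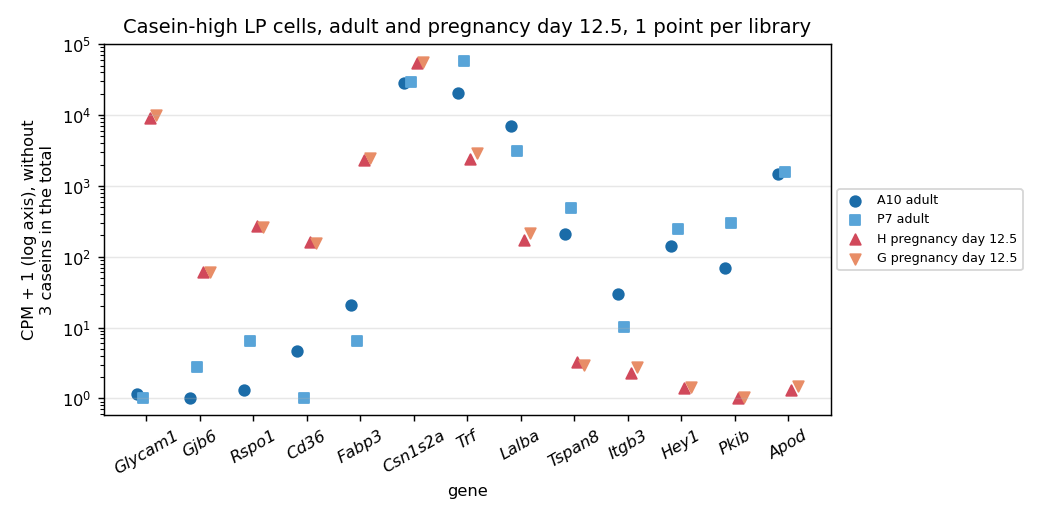
CPM plus 1 on a log axis of 13 genes in casein-high LP cells, 1 point per library, for A10 and P7 (adult) and H and G (pregnancy day 12.5), with the 3 caseins left out of the totals. Glycam1 to Fabp3 lie higher in pregnancy, and Tspan8 to Apod lie higher in the adult.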

How the data were processed

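Each library was a droplet single-cell RNA library (10x Genomics 3' kit, named as v2 in the study's methods, though the barcodes of P7 are 14 bases long and those of the others 16). The authors deposited filtered matrices of UMI counts per gene and cell, aligned to mm10 per the submitters' processing notes and made with Cell Ranger 3.0.2 per the file headers of the adult and pregnancy libraries. The deposited counts were used unnormalised, and no batch correction was applied.

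Cells with at least 500 genes and under 20% mitochondrial UMIs were kept. The members and the gene lists were chosen with earlier results of these data known. UMIs were summed per library and class when a class held at least 10 cells. Sums were tested in edgeR 4.0.16 (R 4.3.3, limma 3.58.1) by the quasi-likelihood test with TMM factors, filterByExpr and Benjamini-Hochberg adjustment over all genes tested, called at an adjusted p under 0.05. The 14 genes of the LP rule were left out of the tests of LP cells and the 3 caseins out of those by casein share. Library was a block, except between stages, because both classes came from the same library (correlations of their deviations from the class means were 0.693 to 0.861). The cells of a library came from pooled mice and no animal is identified. Exact binomial intervals are at 95%, and 3 counts set the floor for a count of 0. CPM are UMIs of a gene per 1000000 UMIs of its class.

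Genes named are members of the lists and, outside them, per test the 8 called genes with the largest rise and the 8 with the largest fall among those on the same side in every library, with a mean of at least 20 CPM in the higher class. Mitochondrial, ribosomal and predicted genes were not named by that rule. Genes used to check strain labels, or that set D12 apart, were chosen after their values were seen.

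Alternatives were DESeq2 1.42.0, no TMM, no filter on low counts, no replicate block, each library left out, the study's own cell limits, 1000 genes, cells with the highest Scrublet doublet scores left out (scanpy 1.11.5), cells thinned to 1500 UMIs, 3 marker UMIs and casein limits of 1 and 5%. No doublets were removed otherwise. Promoter sequences came from RefSeq (GRCm38.p6). Python 3.11.15, scipy 1.17.1 and matplotlib 3.10.9 were used.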

Additional observations from a re-analysis of the deposited data

How the results depend on the processing

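The mean LP share kept within 1 SD of 23.9% under every alternative apart from thinning to 1500 UMIs per cell, which gave 22.6%. Leaving out 1 library gave 23.4 to 24.3%. The SD between libraries was 3.36 on thinning and 2.02 in cells of at least 1000 genes, against 0.916. The casein-high share was 8.39% (without A10) to 25.1% (without D12) on leaving out 1 library, and 31.3% and 4.57% at casein limits of 1 and 5%, against 16.8% with an SD of 16.7. Without the replicate block, which pairs the classes of a library, 291 genes were called in LP cells against other cells and 431 against hormone-sensing cells, and 0 between casein-high and other LP cells by edgeR (116 at an unadjusted p under 0.05, and 198 adjusted by DESeq2 with the block). Leaving out 1 library gave 2157 to 4545 and 2339 to 3895 calls in the LP tests, the lowest without A10. Between casein-high and other LP cells thinning gave 301 calls, a casein limit of 5% 153 and the cells of highest casein share in each library (the top 25%), chosen after seeing the data, 496, against 840. Leaving out a library could not be fitted there, since 1 library leaves no residual degrees of freedom. Between stages, no filter on low counts gave 1766 calls, thinning 336, a casein limit of 1% 1140 and of 5% 1752, against 706, and leaving out 1 library gave 0 to 6254. There no paired analysis was possible because each library holds 1 stage. At a casein limit of 5% the sign turned for 17 of the 840 genes called between casein-high and other LP cells (6 by DESeq2 and 6 on thinning). Among named genes it turned for Hspa5 (-0.032) and Mfge8 (-0.32) between casein-high and other LP cells and for Csn1s2a (-0.090) between stages. The cause of these shifts was not tested. Depth was lowest in P7, where the casein-high sum held 576511 UMIs, so genes of a few CPM rest on single UMIs there.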
